A study of Mus musculus with 270 samples.

Results

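The comparison described here is that of skeletal muscle at 26 months (M) of age with skeletal muscle at 20 M, the last step of an ageing series in male C57BL/6J mice. Its members are the 12 muscle libraries of these ages, 5 from mice of 26 M and 7 from mice of 20 M, out of 45 muscle libraries and 270 libraries in the series. They were chosen by the organ and age in the labels alone. The study took muscle together with heart, lung, liver, kidney, testis and further organs from each of 45 mice of 6 ages, and each mouse gave 1 library per organ. All mice came from a single cohort, and no engineered allele or treatment is named for any of them, so the groups share strain and sex and are labelled by age alone. Which muscle was taken is not given in the sources used here, and 26 M is represented by 5 animals. The values are normalized counts, that is, reads per gene divided by a size factor for each library. Of 51810 genes in the muscle table, 17430 had at least 10 normalized counts in at least 5 muscle libraries and were tested. A difference is given as log2 of (normalized count + 1), 26 M minus 20 M, so that a positive value is higher at the older age. On this scale the change of low genes is understated.

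Skeletal muscle of old mice loses mass and force, a condition called sarcopenia. A muscle is built mostly from multinucleate fibres that hold the contractile sarcomeres, and between the fibres lie capillaries, nerve endings, resident macrophages, satellite cells (the muscle stem cells) and fibro-adipogenic progenitors, which make most of the collagen matrix. Myostatin, a secreted member of the TGF-beta family, restrains fibre growth, and the ubiquitin ligases of the atrophy programme mark fibre proteins for degradation. Loss of contact with the motor nerve switches on a separate set of denervation genes in the fibre. These processes gave the gene lists used below. In bulk tissue, fewer cells of a type and less RNA per cell cannot be told apart.

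All 12 libraries held the transcripts of muscle fibres, with 184905 to 236612 RPM (reads per 1000000 reads of the library) in 12 fibre markers. Depth ranged from 6068226 to 13740428 reads at 26 M and from 8598059 to 20108970 reads at 20 M. Some facts about the libraries precede the results. In the first place, 3 of the 12 libraries (mice c3667 and c3775 at 26 M, c3054 at 20 M) also held markers of organs other than muscle. Their summed testis germ cell markers reached 755.1, 235 and 518 RPM, while c2140 at 20 M had 44.8 and the other 8 libraries had 2.77 to 5.23. *Alb*, the serum albumin gene of hepatocytes, stood at 8067 normalized counts in c3667, 1343 in c3775 and 1614 in c3054 and was at most 373 in the others. Cardiomyocyte, hepatocyte, kidney tubule and lung epithelium markers were also highest in these 3 libraries. With a limit of 100 RPM in the kidney, lung or testis list, 6 of the 45 muscle libraries lay above it. The main counts are therefore also given from a fit without these 6 libraries, which leaves 3 mice of 26 M and 6 of 20 M. Besides the 3 libraries above, it leaves out c1383 at 8 M and c568 and c2600 at 14 M, which enter the shared estimate of spread. Below it is called the fit without the 3 libraries. In the second place, the 45 mice were divided into 2 sets of 24 and 21 animals. The division follows the sign of the first principal component of their heart libraries, which held 30.5% of the variance. Such a division gives 2 sets in any data, and whether the sets are separate groups was not tested. All 3 libraries above lie in set 1. Set 1 holds c3667, c3668 and c3775 at 26 M with c1300, c2140 and c3054 at 20 M, and set 2 holds c620 and c2293 with c1312, c1315, c3055 and c3580. The organs were taken on 2 successive days with the ages balanced between them, and the day of each mouse is not given in the sources used here, so whether the sets follow the days was not tested. In addition, several abundant or widely used genes, among them *B2m*, *Cox6a2* and *Txnip*, are listed at 0 in every one of the 12 libraries, so a listing at 0 is not read as silence of a gene.

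**Figure D1:**
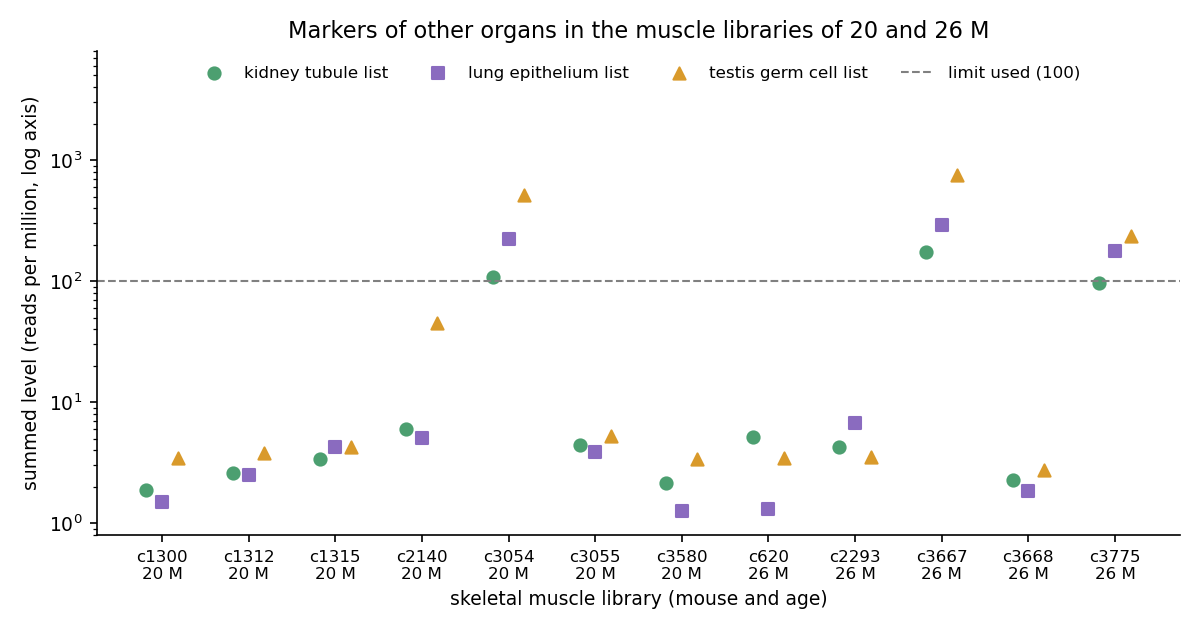
Summed RPM (log axis) of the kidney tubule, lung epithelium and testis germ cell marker lists in each of the 12 muscle libraries, with the limit of 100 as a dashed line. Mice c3054, c3667 and c3775 lie above the limit in at least 1 list, and the testis list of c2140 is at 44.8.

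Few of the differences between 20 and 26 M passed a test across all genes. After adjustment over 17430 genes, 1 gene passed (0.00574%), the long non-coding RNA *Gm29506*, which rose. Before adjustment 1334 genes had a p of 0.05 or less (7.65%), of which 664 were higher at 26 M (3.81%) and 670 lower (3.84%). Without the 3 libraries that held markers of other organs, 1 gene passed again, but it was *Hpgd* and not *Gm29506*. There 550 genes had an unadjusted p of 0.05 or less (3.16%), 327 higher (1.88%) and 223 lower (1.28%). Within set 1 of the mice 386 genes were higher (2.21%) and 370 lower (2.12%), and within set 2 427 were higher (2.45%) and 375 lower (2.15%), with no gene past the adjusted threshold in either. The split between directions depended on the scaling. Quantile normalization gave 1291 genes, of which 444 (34.4%) were higher, and subtracting the median difference of all tested genes, which was 0.09, gave 349 higher and 1503 lower. A filter on the mean of at least 50 normalized counts gave 342 higher and 620 lower, and no filter gave 1598 higher and 821 lower. The members of every gene list below are read against these shares, and single genes that did not pass the adjusted test are called higher or lower, with their values. Leaving out single libraries also moved the totals. Higher and lower genes numbered 371 and 359 without c3580, 398 and 291 without c3667 and 370 and 357 without c3775. They numbered 784 and 733 without c2293, 922 and 1091 without c620 and 1158 and 969 without c3054. List counts from such fits stand beside these totals.

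*Gm29506* (ENSMUSG00000101227.1) is an unnamed transcript that GENCODE classes as sense-overlapping. It lies on chromosome 1 of GRCm38, from 23048295 to 23235673 on the minus strand, and has 4 exons of 63, 55, 81 and 1879 bases. The gene *4933415F23Rik* sits within its last intron on the same strand, from 23100473 to 23102253. Beyond its start lie 2 microRNA genes on the opposite strand, *Mir30a* at 23272269 to 23272339 and *Mir30c-2* at 23291701 to 23291784. Its promoter region in RefSeq (GRCm38.p6, chr1:23235609-23235908, minus strand, 250 bases before the start and 50 after) is shown because it belongs to the 1 gene that passed the test across all 12 libraries. Capitals mark E-boxes, the motif CANNTG that basic helix-loop-helix factors such as the myogenic regulators bind; it reads the same on both strands.
Gm29506: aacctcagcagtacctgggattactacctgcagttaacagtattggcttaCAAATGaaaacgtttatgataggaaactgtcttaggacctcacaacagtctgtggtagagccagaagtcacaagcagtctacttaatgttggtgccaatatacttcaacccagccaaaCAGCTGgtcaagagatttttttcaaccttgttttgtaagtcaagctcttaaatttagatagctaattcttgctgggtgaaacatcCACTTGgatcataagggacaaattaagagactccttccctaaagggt
The region held 3 E-boxes. Of 32851 RefSeq promoters of 300 bases, 72.3% held at least 1 E-box and 17.6% at least 3, so the count is a description and marks no site of binding.

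At 26 M *Gm29506* had 266 normalized counts in c620, 406 in c2293, 761 in c3667, 1234 in c3668 and 672 in c3775. At 20 M the lowest library had 59.6, the median was 102 and the highest had 384. The groups overlapped through c2140 alone, the 20 M library at 384 that also had 44.8 RPM of testis germ cell markers. The difference was 2.26 on the log2 scale (SE 0.38, 95% interval 1.50 to 3.02, limma adjusted p = 0.00547), with means of 668 ± 374 (SD, n = 5) and 145 ± 111 (SD, n = 7). Its mean was 85.4 in the mice of 3 M and 94.4 in those of 5 M, then 102 in the mice of 8 M and 105 in those of 14 M. From 14 to 20 M it differed by 0.37 (adjusted p = 0.988), a comparison that uses the same 20 M libraries. Its highest library, c3668, was one of the lowest in markers of other organs, at 6.87 RPM over the kidney, lung and testis lists together. The difference kept its size without the 3 libraries, 2.00, although it no longer passed (adjusted p = 0.390), and it was 2.24 within set 1 and 1.86 within set 2. Leaving out c3667 gave an adjusted p of 0.0545 and leaving out c3668 one of 0.130, so the call rested on both of these mice. In a fit of the 20 and 26 M libraries alone the difference was also 2.26 and did not pass (adjusted p = 0.596).

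**Figure D2:**
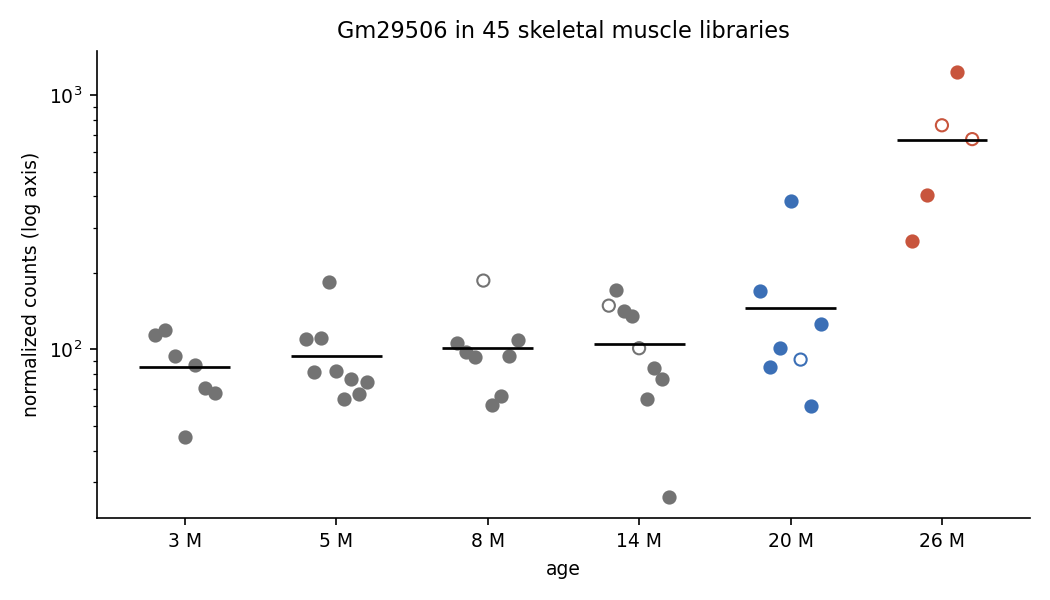
Normalized counts of *Gm29506* (log axis) in each of the 45 muscle libraries by age, with the mean of each age as a bar. Open symbols are libraries with over 100 RPM of kidney, lung or testis markers; the 5 libraries of 26 M run from 266 to 1234, above all but 1 library of 20 M.

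The genes with the smallest unadjusted p were then taken, 12 in each direction, among named genes with a mean of at least 20 normalized counts. None of these 24 passed the adjusted test over the 12 libraries. Among the higher ones, *Sash1*, a scaffold protein of signalling complexes, had 232, 337, 360, 327 and 311 normalized counts at 26 M (in the order c620, c2293, c3667, c3668, c3775, used throughout). Its 20 M libraries ran from 154 to 231 with a median of 198, so the groups did not overlap. The difference was 0.69 (SE 0.16, adjusted p = 0.270), and without the 3 libraries it was 0.64. *Sash1* was also among the genes that fell from 14 to 20 M, where it fell by 0.63 log2 with a limma adjusted p of 0.0307, a step that shares the 20 M mice. *Sh3d19*, an adaptor that binds membrane metalloproteases, had 432, 391, 355, 365 and 319 against 213 to 269 (median 230) at 20 M. Every 26 M library thus exceeded every 20 M library, by 0.64 in the fit (SE 0.16, adjusted p = 0.270) and by 0.75 without the 3 libraries. A further 3 of the 12, *Kctd12b*, *Plekha5* and *Gpr137b-ps*, also had groups that did not overlap; the last is annotated as a pseudogene, and its reads may be shared with the parent gene.

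*Hpgd* encodes the enzyme that degrades prostaglandin E2, a lipid signal that acts on muscle stem cells and fibres. At 26 M it had 275, 558, 136, 315 and 139 normalized counts, against 70.5 to 225 (median 135) at 20 M. Its 2 low libraries at 26 M were c3667 and c3775, those with markers of other organs, and the other 3 lay above every 20 M library. Over all 12 libraries the difference was 1.05 (SE 0.27, adjusted p = 0.431). It was 1.64 and passed without the 3 libraries (adjusted p = 0.0414). *Krt18*, an intermediate filament gene included in the denervation list, had 40.9, 74.3, 28.8, 24.6 and 36.9 normalized counts at 26 M. At 20 M it ran from 0 to 25.4 with a median of 12.4, so the groups touched at 1 library, and the difference was 2.04 (SE 0.56, adjusted p = 0.485).

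The rest of the higher genes covered several kinds of protein. *Meox2*, a homeobox factor of the mesoderm, differed by 0.83 and *Matn2*, a matrilin of the extracellular matrix, by 0.97. *Rgs10*, a regulator of G protein signalling, differed by 0.93. *Tceal7* differed by 0.90 and the phosphatase *Dusp18* by 0.97. Their adjusted p-values lay between 0.270 and 0.485. Of these 5 genes only *Dusp18* had an unadjusted p above 0.05 without the 3 libraries, at 0.0549. All 5 were also lower at 20 M than at 14 M, a step that shares the 20 M mice. The differences were −0.64 for *Meox2*, −0.69 for *Matn2*, −0.35 for *Rgs10*, −0.50 for *Tceal7* and −0.53 for *Dusp18* (limma adjusted p from 0.132 to 0.930). The mean of *Meox2* was 168 at 14 M, 109 at 20 M and 193 at 26 M.

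Among the lower genes the smallest p belonged to *Eepd1*, which encodes a nuclease-related protein implicated in DNA repair. It had 902, 894, 651, 906 and 603 normalized counts at 26 M against 880 to 1672 (median 1389) at 20 M. The difference was −0.73 (SE 0.16, adjusted p = 0.229), and c620, c2293 and c3668 overlapped the lowest 20 M library. By DESeq2 on the recovered reads *Eepd1* passed (adjusted p = 0.0159), and it also passed when the median difference of all genes was subtracted (adjusted p = 0.0360). *Themis3* differed by −1.36 and by −1.66 without the 3 libraries, where the groups did not overlap. *Psmd8*, a subunit of the regulatory particle of the proteasome, had 3261, 2390, 1525, 2946 and 1970 against 3260 to 4322 (median 3801). Its 2 lowest libraries at 26 M were c3667 and c3775, and its difference of −0.66 (adjusted p = 0.270) was −0.36 without the 3 libraries.

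*Ttll7*, a tubulin polyglutamylase, and *Spns2*, a sphingosine-1-phosphate transporter, were lower in every 26 M library than in any 20 M library. *Ttll7* had 2886, 2709, 1763, 2952 and 2682 against 3329 to 8192, and *Spns2* had 215, 266, 186, 268 and 163 against 278 to 710. Their differences were −0.90 and −1.001, with adjusted p-values of 0.431 and 0.444. *Hoxc11*, a homeobox gene of the posterior body, had 51.2, 20.7, 12.4, 30.1 and 12.3 against 44.2 to 94.8 and differed by −1.41. *Gpn2*, a GTPase involved in the assembly of RNA polymerases, had 71.6 in c620 and 19.6 to 38.7 in the other 4 mice, against a narrow range of 62.4 to 71.0 at 20 M. Mouse c620 at 26 M was thus at the level of 20 M and the others were below it. Its difference was −0.94 (adjusted p = 0.270), and it passed without c620 (adjusted p = 0.0217). *Mmgt2*, *Odf3l2*, *Sel1l3* and *Ncln* had differences of −0.99, −1.23, −0.54 and −0.76. The remaining one of the 12 is *Mstn*, described with its family.

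**Figure D3:**
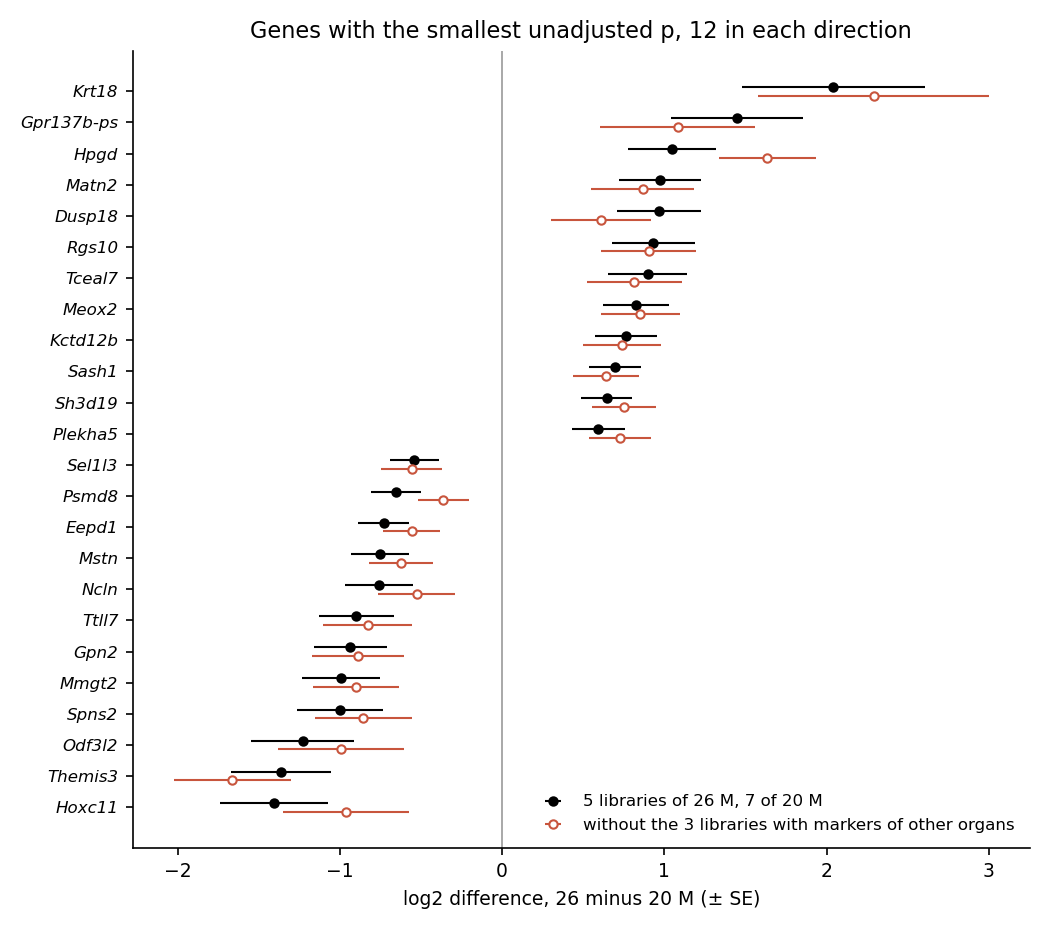
Log2 differences (26 minus 20 M, ± SE) of the 12 genes with the smallest unadjusted p in each direction, from all 12 libraries (filled) and without the 3 libraries with markers of other organs (open). All 24 keep their sign, *Hpgd* moves from 1.05 to 1.64 and *Psmd8* from −0.66 to −0.36.

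The extracellular matrix list stood out in its count. Of 27 tested collagens and matrix genes, 15 were higher at 26 M at an unadjusted p of at most 0.05 and 0 were lower, where 3.81% of all tested genes were higher. The median difference of the list was 0.57 against 0.09 over all tested genes. No member passed the adjusted test. With the 3 libraries left out 14 of 27 were higher, with a median of 0.56, and within the sets of mice 11 (set 1) and 7 (set 2) were higher. Quantile normalization gave 16 members higher and subtraction of the median difference 11, with 0 lower in both. The count depended on single mice: it was 4 without c3580 of 20 M, 5 without c2293 of 26 M and 5 in a fit of the 20 and 26 M libraries alone. Over all tested genes 371, 784 and 763 were higher in these fits, in the same order, where the main fit gave 664.

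*Col1a2*, a chain of type I collagen, had 1047, 2023, 1208, 1572 and 852 normalized counts at 26 M. At 20 M it ran from 341 to 1498 with a median of 848. The groups overlapped widely, with the highest value in c2293 and the lowest in c3580, and the difference was 0.67 (SE 0.23, adjusted p = 0.605). *Fmod*, fibromodulin, which binds collagen fibrils, had 114, 159, 182, 379 and 239 against 42.6 to 242 (median 101). It differed by 0.99 (SE 0.33), with c3668 the only 26 M library above all of 20 M. *Thbs4*, a thrombospondin of tendon and muscle, had 464, 638, 490, 794 and 919 against 253 to 749 (median 350) and differed by 0.66 (SE 0.22). *Lum*, lumican, had 479, 452, 173, 277 and 235 against 63.6 to 487 (median 116). The other members past the unadjusted threshold were *Col14a1* (0.65), *Col15a1* (0.74), *Col5a2* (0.54), *Col6a1* (0.63), *Col6a2* (0.64), *Col6a3* (0.44), *Col1a1* (0.59), *Col3a1* (0.70), *Postn* (0.75), *Loxl2* (0.59) and *Bgn* (0.57).

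Summed over the list, matrix transcripts took 1693, 3148, 1713, 1973 and 2232 RPM at 26 M. The 20 M libraries ran from 726 in c3580 to 1992 in c3055, so that c2293 and c3775 lay above all of them. For the 3 members with the smallest p, the mean at 20 M was the lowest of the 6 ages: *Fmod* (117), *Thbs4* (428) and *Col14a1* (98.3). At 26 M *Fmod* (215) and *Thbs4* (661) were still below their means at 3 to 14 M, which were at least 299 and 790. *Col14a1* at 26 M (153) was above its means at 5 to 14 M (130 to 135) and below that at 3 M (163). The 26 M level of the whole list was not compared with ages before 20 M. In the step from 14 to 20 M, which shares the 20 M libraries, 984 genes were past the unadjusted threshold (5.65%), 448 of them higher at 20 M (2.57%). Past the same threshold 19 of the 27 members were lower at 20 M (3.08% of all tested genes were lower), with a median difference of −0.65. A total of 5 members fell from 14 to 20 M by the adjusted test, in which 34 genes passed (0.195%). *Fmod* fell by 1.54 on the log2 scale, *Col1a2* by 1.07, *Col15a1* by 1.04, *Loxl2* by 1.01 and *Thbs4* by 0.94. The same 7 libraries of 20 M thus enter both steps, once as the later and once as the earlier age, and c3580 is the lowest of them for *Col1a2* and *Fmod*.

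Markers of the cells that make matrix were set beside it. Of 12 markers of fibro-adipogenic progenitors, 4 were higher and 0 lower (*Pi16*, *Dpt*, *Lum* and *Cxcl14*), with a median of 0.36, and without the 3 libraries 9 of 12 were higher with a median of 0.65. The count was 0 without c3580 or without c2293 and 7 without c3667. *Pi16*, a marker of adventitial progenitors, had 167, 219, 81.2, 183 and 164 normalized counts against 32.9 to 152, with c3667 as the only 26 M library inside the 20 M range. Their summed level was 1204 to 2783 RPM at 26 M and 829.0 to 2073 at 20 M. Of 8 tested tenocyte markers 3 were higher, *Thbs4*, *Fmod* and *Tnmd*, and *Scx* and *Chad*, which define tendon cells, are listed at 0. Lists overlap: *Dcn* and *Lum* stand in both the matrix and the progenitor lists, and *Fmod*, *Thbs4* and *Tnc* in both the matrix and the tenocyte lists. These markers moved with the matrix genes, and their part in the result was not tested. Matrix proteases had 4 of 19 members higher and 0 lower, among them *Mmp3* (1.23) and *Adamts5* (0.44), and 6 of 19 without the 3 libraries but 0 without c3580.

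**Figure D4:**
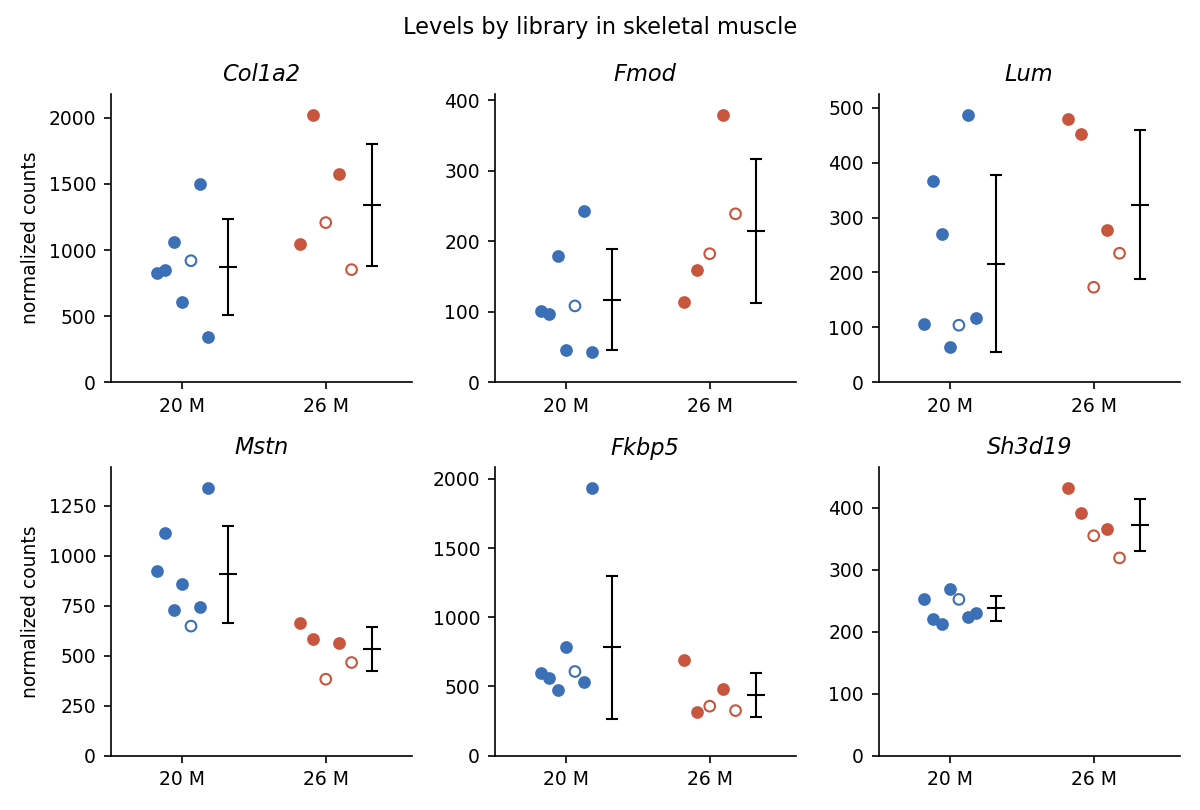
Normalized counts of 6 genes in each library at 20 M (blue) and 26 M (red), with mean ± SD (n = 7 and 5) beside the points and open symbols for the 3 libraries with markers of other organs. *Sh3d19* does not overlap between the ages, while *Col1a2*, *Fmod*, *Lum*, *Mstn* and *Fkbp5* do.

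Myostatin, *Mstn*, was lower at 26 M. It had 665, 584, 383, 564 and 466 normalized counts against 648 to 1337 (median 858) at 20 M. The ranges touched at c620 (665) and c3054 (648), and without the 3 libraries they did not overlap. The difference was −0.75 (SE 0.18, unadjusted p = 0.000118, limma adjusted p = 0.270). Over all alternatives it stayed between −0.84 and −0.60. *Mstn* had differed by 0.45 in the step before, 20 minus 14 M, which shares the 20 M mice (unadjusted p = 0.00499, limma adjusted p = 0.468). Of the 6 ages, 20 M had the highest mean of *Mstn* (908) and 26 M the lowest (532). The mice of 3, 5, 8 and 14 M averaged 817, 902, 773 and 661. The difference is thus measured from the highest mean of the 6, which lay close to that of 5 M. In the family of TGF-beta and myostatin genes, 4 of 27 were higher and 2 lower, and 2 and 1 without the 3 libraries. *Acvr1b*, a receptor through which myostatin signals, had 718 in c620 and 214 to 357 in the other 4 mice against 399 to 1077 (median 537), a difference of −0.70 that was −0.47 without the 3 libraries. *Tgfb1* itself differed by 0.59, and by 0.38 without them.

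Of 21 genes of the atrophy programme 6 were lower and 0 higher at an unadjusted p of at most 0.05, with a median of −0.16. Besides *Mstn* these were *Klf15* (−0.54), *Asb2* (−0.72), *Fbxo31* (−0.62), *Foxo4* (−0.54) and *Fbxo40* (−0.44). Without the 3 libraries 2 members were lower, within set 1 of the mice 3, within set 2 2, and without c3580 alone 3. The ligases most used as atrophy markers showed no difference of that kind. *Trim63* (MuRF1) and *Fbxo32* (atrogin-1) had 2099 to 5322 and 4674 to 10560 normalized counts at 26 M against 2632 to 5829 and 5209 to 11838 at 20 M, and differed by −0.16 (SE 0.18) and −0.17 (SE 0.25). Of 16 glucocorticoid target genes 3 were lower, *Fkbp5* (−0.74), *Klf15* (−0.54) and *Per1* (−0.85). In the other 9 libraries 2 were lower and 1 higher, and *Per1* had an unadjusted p of 0.113. Within set 1 of the mice 4 were lower and within set 2 0, and 2 to 6 with single libraries left out (6 without c620). *Fkbp5*, a co-chaperone of the glucocorticoid receptor, had 694, 317, 358, 482 and 326 against 473 to 1932 (median 597). The highest values of *Fkbp5* (1932) and *Per1* (464) were both those of the 20 M mouse c3580. *Fkbp5* had risen from 14 to 20 M by 0.87 (adjusted p = 0.0170), with the same mice. In that step 6 of the 21 atrophy genes were higher and 0 lower at an unadjusted p of at most 0.05. Of the 16 glucocorticoid targets 5 were higher and 2 lower, where 2.57% of all tested genes were higher. The same 7 libraries of 20 M thus enter both steps of these lists.

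In the contractile apparatus, few members differed. Of 14 fast sarcomere genes 2 were lower and 0 higher, the fast alpha-actinin *Actn3* (−0.74) and *Mybpc2*, fast myosin-binding protein C (−0.64). Both genes were lowest in c3667. The count was 0 without the 3 libraries, where the median of the list moved from −0.27 to −0.04, and it was also 0 without c3667 alone. *Myh4*, the myosin of type IIB fibres, had 559989 to 855993 normalized counts at 26 M and 635580 to 1204400 at 20 M and differed by −0.40 (SE 0.42). *Myh2*, the IIA myosin, differed by 0.36 (SE 0.30) and *Myh1*, the IIX myosin, by −0.45 (SE 0.68). Of 12 slow sarcomere genes 1 was higher, *Tpm3* (0.64), and 0 without the 3 libraries. The median of the slow list was 0.59 over all 12 libraries, but 1.16 within set 1 of the mice and −0.06 within set 2. *Myh7*, the slow myosin, had 102, 613, 379, 1225 and 241 against 37.0 to 508 (median 304) and differed by 0.64 (SE 0.68). The mice of each age thus differed among themselves in slow genes by as much as the ages did. *Mb*, myoglobin, had 8551, 8276, 7749, 11215 and 14689 against 4822 to 11550 (median 6892), a difference of 0.42.

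Excitation-contraction coupling, the chain from the membrane potential to calcium release, had 5 of 16 members lower and 0 higher, with a median of −0.42 over the list. These were *Ryr1*, the calcium release channel (−0.54), the junctophilins *Jph1* (−0.74) and *Jph2* (−0.60), which tie the surface membrane to the calcium store, *Srl* (−0.57) and *Cacnb1* (−0.47). *Jph2* had 3432, 3236, 2161, 4478 and 2036 normalized counts against 2979 to 5192 (median 4975). Its 2 lowest libraries were c3667 and c3775, and the same held for *Ryr1* at 13706 and 13010. In the other 9 libraries 0 of 16 members were lower and the median was −0.19, and without c3775 alone the count was also 0. Without c3667 alone 2 members were lower. Within set 1 of the mice 2 were lower, with a median of −0.50. Within set 2, which holds none of the 3 libraries, 2 were also lower, with a median of −0.30. The part of the markers of other organs in the result was not tested.

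Genes of nerve contact gave a mixed picture. Of 17 tested denervation genes 3 were higher and 0 lower, *Krt18* (2.04), *Rrad* (1.10) and *Ankrd1* (1.05), with a median of 0.35 that was 0.24 without the 3 libraries. With single libraries left out the count ran from 1 (without c1312) to 6 (without c3580). *Rrad*, a small GTPase, had 145, 254, 112, 122 and 97.6 against 18.6 to 193 (median 84.2). *Chrna1*, the acetylcholine receptor subunit that spreads over denervated fibres, had 124 to 294 at 26 M and 111 to 371 at 20 M and differed by 0.12 (SE 0.26). *Runx1*, another denervation-induced factor, differed by 0.31 (SE 0.27), and *Myog* by 0.15 (SE 0.65). Of 14 genes of the neuromuscular junction 1 was lower, *Dok7* (−0.64), an adaptor of the receptor kinase MuSK, and 0 without the 3 libraries, while *Musk* differed by −0.26 (SE 0.20). Among 17 satellite cell and myogenesis genes 1 was lower, *Myod1* (−0.85), a factor that commits cells to muscle. *Myod1* was lowest in c3775 (69.2) and c3667 (91.1). Its difference was −0.55 without the 3 libraries, with an unadjusted p of 0.141, and the count was then 0, as it was without c3775 alone. *Pax7*, the marker of satellite cells, had 23.7 to 54.4 against 18.0 to 56.6 and differed by 0.23 (SE 0.26).

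Energy metabolism showed small counts. Of 41 nuclear genes of oxidative phosphorylation 0 were higher and 0 lower, with a median of −0.07, and the 13 genes of the mitochondrial genome were not analysed here. Of 25 glycolysis and glycogen genes 4 were lower, among them *Phka1* (−0.56) and *Pygm* (−0.54), both of glycogen phosphorolysis, and *Ppp1r3a* (−0.76). Without the 3 libraries, and without c3580 or c3667 alone, 0 of 25 were lower. *Pink1*, a kinase of mitophagy, had 3094, 4116, 2969, 5696 and 3448 against 3457 to 7466 (median 7032) and differed by −0.57. Of 25 fatty acid oxidation genes 2 were lower (*Ppard*, −0.52, and *Pdk2*, −0.61) and 1 higher, and 1 lower and 2 higher without the 3 libraries. Polyamine genes had 1 of 12 lower, *Amd1* (−0.45), an enzyme whose near copy *Amd2* may share its reads. The difference of *Amd1* was −0.22 without the 3 libraries, where 0 of 12 were lower, and the count ran from 0 (without c3055 or c3775) to 4 (without c620).

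The insulin, IGF and mTOR list had 6 of 27 members lower and 3 higher, and 2 in each direction without the 3 libraries. Without c3667 alone 3 were lower and 3 higher, and without c3580 4 were lower and 1 higher. *Irs1*, the insulin receptor substrate, ran from 253 to 354 normalized counts at 26 M and from 360 to 560 at 20 M, without overlap, and differed by −0.64 (SE 0.24, adjusted p = 0.625). *Tbc1d4*, which gates glucose transporters in response to insulin, had 1214, 767, 626, 830 and 879 against 808 to 2000 (median 1227) and differed by −0.53. It had risen by 0.66 from 14 to 20 M (adjusted p = 0.0236), in the comparison that shares the 20 M mice. *Tsc1*, *Eif4ebp1*, *Akt2* and *Insr* were lower by the unadjusted test (−0.46, −0.60, −0.42 and −0.36). The higher members were all binding proteins, *Igfbp4* (0.47), *Igfbp6* (0.56) and *Igfbp7* (0.36), and *Igfbp4* had 957, 1113, 778, 1046 and 1135 against 553 to 860 (median 796). From 14 to 20 M, a step with the same 20 M mice, 6 of the 27 members were higher and 2 lower by the unadjusted test.

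Several lists of stress and turnover had more members lower than higher over the 12 libraries. Of 26 autophagy and lysosome genes 4 were lower, among them *Tfeb* (−0.54), the transcription factor of lysosomal genes, and *Ulk1* (−0.71), the kinase that starts autophagy, and 1 was higher, *Lgmn* (0.43). With those libraries left out 1 was lower and 0 higher. Of 24 antioxidant genes 4 were lower, with *Gpx3* (−0.57), *Txnrd1* (−0.58) and *Keap1* (−0.68) the first by p, and 2 without the 3 libraries. Heat shock genes had 3 of 23 lower, *Dnajb5* (−0.66), *Unc45b* (−0.48) and *Hsf1* (−0.47), and 0 without the 3 libraries. Clock genes had 4 of 17 lower and 1 higher, *Npas2* (0.79), and 0 in either direction without the 3 libraries. In the unfolded protein and integrated stress list 3 of 22 were higher, *Atf3* (1.00), *Trib3* (0.98) and *Psat1* (0.71), and *Herpud1* (−0.43) was lower. In the other 9 libraries 1 was higher and 0 lower, with *Atf3* at 0.56 and *Herpud1* at −0.17, and the count of higher members ran from 1 (without c1315, c3580, c620 or c3775) to 5 (without c3055). Of 24 genes of p53 and cell cycle arrest 1 was higher, *Bbc3* (0.88, and 0.57 without the 3 libraries), and *Cdkn1a*, the p21 inhibitor of the cell cycle, had 275 to 592 against 174 to 706 and differed by 0.35 (SE 0.26). From 14 to 20 M, with the same 20 M mice, 5 of the 17 clock genes and 5 of the 24 antioxidant genes were higher by the unadjusted test, and 0 were lower.

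Among the immune lists, those of complement, interferon and macrophages had members that were higher and 0 that were lower. Of 18 complement genes 3 were higher and 0 lower (among them *Serping1*, 0.49, and *C1ra*, 0.50), with a median of 0.26, and without the 3 libraries 6 were higher with a median of 0.56. Within set 2 of the mice 8 were higher and within set 1 0, and the count ran from 1 (without c3580) to 4 with single libraries left out. Of 34 interferon genes 4 were higher and 0 lower, *Xaf1* (0.76), *Gbp3* (0.60), *Ifit3b* (0.58) and *Ifit2* (0.61), with a median of 0.31, 5 without the 3 libraries, 2 without c3580 and 7 without c1312. Quantile normalization left 1 of them. *Ifit3b* has a near copy and may share its reads. Of 14 macrophage markers 2 were higher, *Mrc1* (0.45) and *Lyve1* (0.50), both of resident macrophages. The macrophage and complement lists share *C1qa*, *C1qb* and *C1qc*, so they are not separate observations for these genes. *Mrc1* had 408, 479, 170, 301 and 306 against 194 to 286 (median 234), with c3667 below the 20 M range and the other 4 above it. Macrophage markers summed to 186 to 412 RPM at 26 M and 163 to 352 at 20 M, with the lowest 26 M library c3667 and the highest 20 M library c3054. In the other 9 libraries they summed to 234 to 358 RPM at 26 M and 163 to 222 at 20 M, without overlap, and the median difference of the list was 0.52 instead of 0.23. Within set 2 of the mice 6 of 14 macrophage markers were higher and within set 1 0. T and NK cell, B and plasma cell and neutrophil markers had 0 members past the unadjusted threshold in either direction, and *Ms4a1* and *Igkc*, which define B and plasma cells, are listed at 0.

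SenMyo, a published list of genes linked to cellular senescence, had 10 of 82 tested members higher and 1 lower, with a median of 0.21, and 13 higher and 0 lower without the 3 libraries. With single libraries left out 4 (without c3580) to 15 (without c3054) were higher. *Hgf*, a growth factor that activates satellite cells, ran from 12.4 to 28.2 normalized counts at 26 M and from 2.31 to 12.0 at 20 M, without overlap and at low level. *Vegfc* (0.72), *Egfr* (0.39), *Wnt2* (1.45) and *Plau* (0.42) were others of the 10. *Cdkn2a*, the gene of the senescence marker p16, had 3.28 to 66.3 against 3.50 to 10.9 and differed by 0.61 (SE 0.81). SenMyo shares 17 genes with the chemokine and cytokine list and 10 with the matrix protease list. It shares 6 with the insulin, IGF and mTOR list, among them *Igfbp4*, *Igfbp6* and *Igfbp7*. Of 20 muscle genes that the study named, 5 were higher and 2 lower (5 and 1 without the 3 libraries), and these were chosen on the same samples, so they are not independent evidence of a direction.

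**Figure D5:**
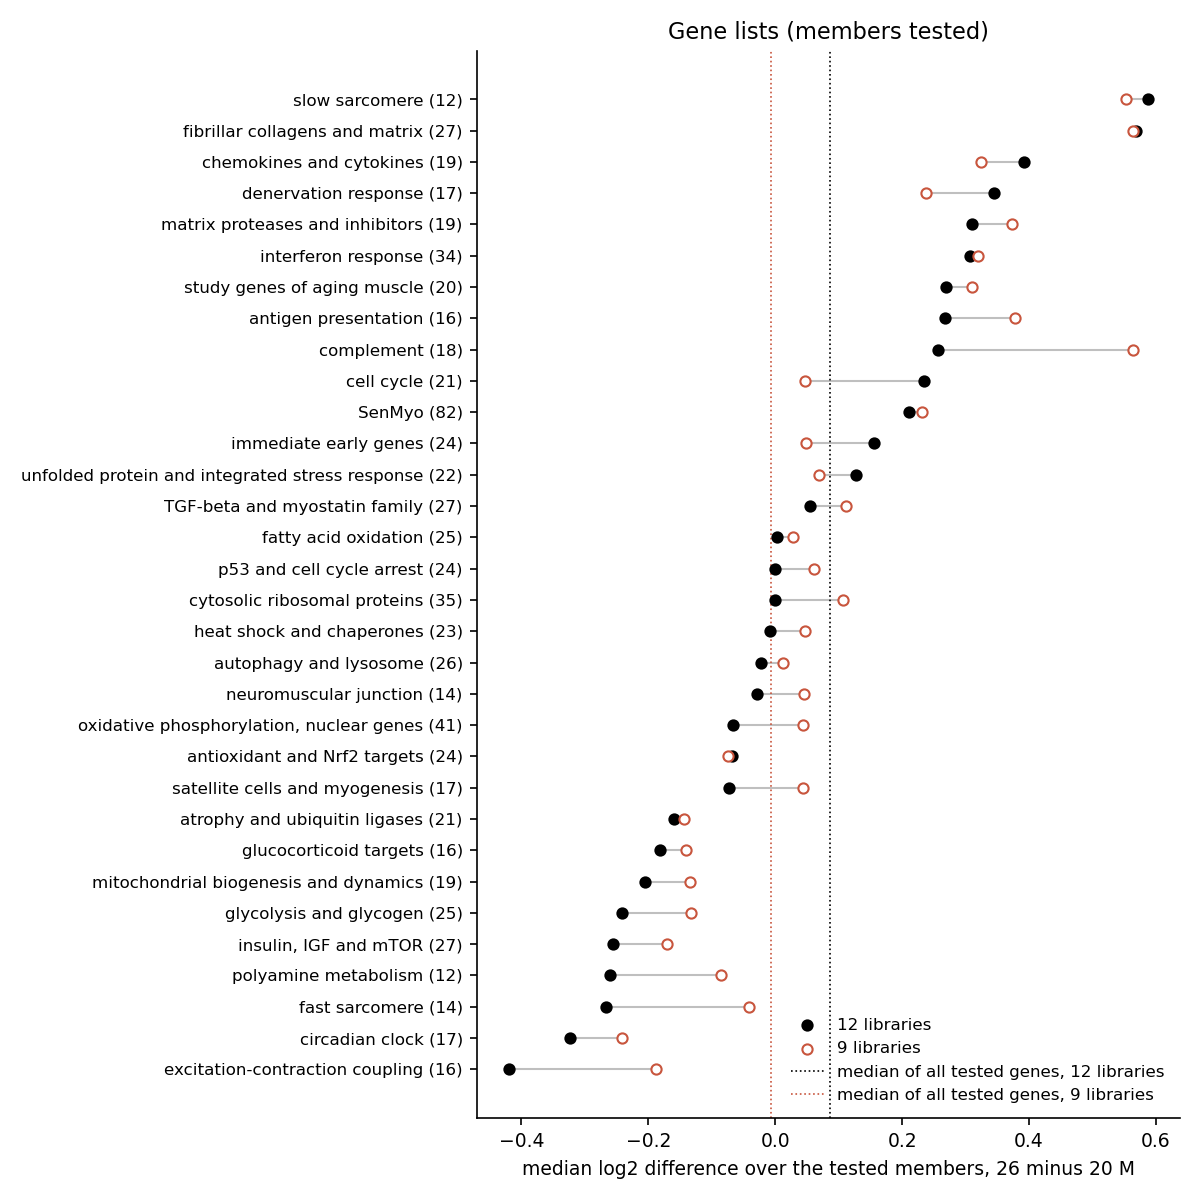
Median log2 difference (26 minus 20 M) over the tested members of each gene list, from 12 libraries (filled) and from the 9 left without the 3 libraries with markers of other organs (open), with dotted lines for all tested genes. The matrix list stays at 0.57 and 0.56, excitation-contraction coupling moves from −0.42 to −0.19 and complement from 0.26 to 0.56.

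Genes whose libraries did not overlap between the ages were counted without any model. There were 48 among 17430 (0.275%), 30 higher (0.172%) and 18 lower (0.103%). In groups of this size some genes separate without any effect of age, and how many was not estimated. Absence of overlap, here and above, is therefore a description of the values and no test. Besides those above, *Scara5*, a scavenger receptor of progenitor cells, ran from 466 to 579 normalized counts at 26 M and from 274 to 455 at 20 M. *Eif2ak2*, the kinase PKR that senses double-stranded RNA, ran from 157 to 170 against 94.9 to 152. *Pon1*, a serum esterase, ran from 23.9 to 60.3 against 9.84 to 22.4. Among the lower, *Pde4b*, a cyclic AMP phosphodiesterase, ran from 1195 to 1492 against 1495 to 2749. These 4 were singled out after their values were seen. In the other 9 libraries 318 genes did not overlap (1.82%), 185 higher (1.06%) and 133 lower (0.763%), in smaller groups of 3 and 6.

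The last step was also set against an earlier step of the same length, from 8 to 14 M, which uses other mice. For 0 of 17430 genes did the steps differ after adjustment by limma (0.0%), and edgeR and DESeq2 on the recovered reads also gave 0. Unadjusted, 819 genes differed by limma (4.7%). The difference of the last step minus that of the earlier step was positive for 479 (2.75%) and negative for 340 (1.95%). Signs are kept, so a gene that fell more in the last step counts as negative. *Mmgt2*, for example, differed by −0.99 from 20 to 26 M and by 0.18 from 8 to 14 M. *Gm29506* had the smallest p, with a difference between the steps of 2.30 (SE 0.49, adjusted p = 0.427), and its difference from 8 to 14 M was −0.04. *Dusp18* followed among the named genes, with a difference between the steps of 1.31.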

How the data were processed

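mRNA libraries from each organ were sequenced as single reads and amplified by PCR without molecular identifiers, so counting error is understated by read numbers. The submitters' processing notes name bcl2fastq 2.20, Trim Galore, HISAT2 2.1.0, SAMtools, R 3.5.1 and DESeq2 with the build GRCm38 (mm10), and the authors counted reads on Ensembl genes with GenomicAlignments. The unit of the deposited table is a signal: the authors scaled the count of each gene by a size factor from DESeq2, estimated over the muscle libraries. Dividing by the smallest step of a library gave whole reads for 100% of its values (tolerance 0.001 reads), and these reads were used for the count tests. The table maps 45 columns to labelled mice, with 0 columns unassigned.

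The test covered genes that reached 10 normalized counts in 5 or more of the 45 libraries, on log2(value + 1), by limma 3.58.1 (R 4.3.3) with a trended prior, in a fit of all 6 ages. Contrasts were two-sided, with Benjamini-Hochberg adjustment at 0.05 over 17430 genes. Replicates are mice. Named genes are those called, the 12 with the smallest p in each direction with a mean of at least 20 normalized counts (unnamed clones left out), the 3 with the smallest p in each list, a fixed set of muscle genes and the muscle genes the study names. The members and the 51 gene lists were chosen with earlier results of these data known. Coordinates are from GENCODE and RefSeq on GRCm38.

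Alternatives were a pseudocount of 0.1, no filter, a mean of at least 50, quantile normalization, edgeR 4.0.16 and DESeq2 1.42.0 on the recovered reads, the 2 ages alone, array weights, the sets of mice or log2 depth as a term, and each library left out. Chosen after seeing the data were the fit without the libraries with markers of other organs, these markers as a covariate, the contrast within each set of mice and subtraction of the median difference. Tested on simulated data of the contrast of 26 and 20 M over 17430 genes, limma recovered 56% of 100 genes changed 2-fold and 93% of 100 changed 4-fold, with 8 false calls, edgeR 56%, 92% and 7, and DESeq2 61%, 96% and 16. The changed genes were drawn from those with a mean of at least 50 reads scaled by depth. Counts were drawn for each gene independently, with no library set apart by markers of other organs, so recovery in the deposited libraries may be lower. Some named genes are not reported here.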

Additional observations from a re-analysis of the deposited data

Results flagged for a closer look

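A library was set apart where its gap to the nearest library, divided by the range of its group, exceeded the critical value for the group's size. Of 208 groups of genes and list levels, 18 had such a library, and chance gives about 1 in 20. All ratios below are on log2 values.

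Single genes came first. At 20 M the lowest library stood apart for *Matn2* (c3580, ratio 0.590), *Krt18* (c1312, 0.633), *Myh7* (c2140, 0.683) and *Hspa1a* (c2140, 0.750), and at 26 M for *Ttll7* (c3667, 0.814). Mouse c2140 was thus lowest in both the slow myosin and the inducible heat shock gene of its age.

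Mouse c3054 of 20 M stood highest in its group for the summed markers of cardiomyocytes (0.805), hepatocytes (0.783), lung epithelium (0.733), kidney tubule (0.715), macrophages (0.597) and neutrophils (0.575) and for the cell cycle genes (0.670). It is 1 of the 3 libraries with markers of other organs, which the report leaves out in its second set of values.

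Mouse c620 of 26 M, the library of least depth, stood highest for clock genes (0.715) and glucocorticoid targets (0.747) and lowest for heat shock genes (0.770) and cytosolic ribosomal proteins (0.842). Mouse c3580 of 20 M stood lowest for fatty acid oxidation (0.601) and antigen presentation (0.593), and the count of higher matrix genes also rested on it.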

How the results depend on the processing

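No gene named here reversed its direction where it was called. The number of genes past the adjusted threshold, 1 in all, was 3 with no filter, 3 by DESeq2, 3 with log2 depth as a covariate, 4 with array weights, 2 with the median difference subtracted, 0 in a fit of the 2 ages alone and 0 within set 1 or set 2 of the mice, and 0 to 3 with single libraries left out. It was 0 without c3667 and without c3668. The number with an unadjusted p of at most 0.05, 1334 in all, was 2419 with no filter, 2270 with log2 depth as a covariate, 550 without the 3 libraries with markers of other organs, 756 within set 1 and 802 within set 2, and 689 (without c3667) to 2127 (without c3054) with single libraries left out. Matrix members higher at 26 M, 15 in all, were 5 in the fit of the 2 ages alone, 7 within set 2 and 4 (without c3580) to 18 (without c3055) with single libraries left out. Genes without overlap, 48 in all, were 27 with a mean of at least 50, 318 without the 3 libraries and 58 to 235 with single libraries left out, where smaller groups overlap less by construction. The difference between the steps gave 0 genes, and 0 to 1 with single libraries left out, the 1 being *Gm29506* without c2140. The cause of these shifts was not tested.

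*Gm29506* was called under 21 of 27 alternatives. Among the single named genes, 1915 planned values kept their direction and side of the threshold, 22 moved, 6 became called and 1 was lost. With single libraries left out these numbers were 2341, 31, 2 and 2, and for the alternatives chosen after seeing the data 939, 46, 2 and 3. Only *Gm29506* was called in the main fit, so most values that stayed were not called in either fit. The counts of the gene lists are not included in these numbers. No paired analysis was possible because the mice of 20 and 26 M are different animals whose numbers are not shared. At 5 against 7 mice, limma recovered 56% of the simulated 2-fold changes, which were placed in genes with a mean of at least 50 reads. Smaller changes and lower genes were not simulated as changed.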

Other observations

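Markers of the other cell types had few members past the unadjusted threshold of 0.05. Of 12 endothelial markers 1 was higher, *Vwf* (0.58), which had 239, 221, 251, 384 and 329 normalized counts at 26 M against 75.5 to 246 at 20 M, and of 11 pericyte and smooth muscle markers 1 was lower, *Abcc9* (−0.50), which differed by −0.37 without the 3 libraries that hold markers of other organs. Of 11 Schwann cell markers 1 was higher and 0 lower, with a median of 0.51, and 2 were higher without the 3 libraries, with a median of 0.49. All 11 differences were positive over the 12 libraries, as were those of 10034 of the 17430 tested genes, and 9 without the 3 libraries. Within set 1 of the mice 4 were higher (median 1.04) and within set 2 0 (median 0.33). Adipocyte and erythroid markers had 0 in either direction. Adipocyte markers summed to 3408 to 4899 RPM at 26 M and 1837 to 5800 at 20 M, so the older muscles lay within the range of the younger. Of 12 fibre markers *Mb* was higher and *Ryr1* lower, and neither without the 3 libraries. Cardiomyocyte, lung epithelium and testis germ cell markers had 0 past the unadjusted threshold, and the hepatocyte list had *Cyp3a11* (1.14), the kidney tubule list *Slc12a3* (2.29) and the neuron list 1 lower member, none of them without the 3 libraries. Among the remaining gene lists, cytosolic ribosomal proteins had 0 of 35 in either direction, antigen presentation 1 of 16 higher (*H2-D1*, 0.38), chemokines and cytokines 1 of 19 higher (*Cxcl14*, 0.47), immediate early genes 1 of 24 higher (*Atf3*), the cell cycle list 1 of 21 higher (*Bub1*, 2.03) and 1 lower (*Mcm2*, −0.66), and mitochondrial biogenesis 2 of 19 lower (*Pink1* and *Twnk*, −0.44). *Bub1* had 49.1 normalized counts in c3667, 25.6 in c3775 and 16.9 in c3054, and 0 to 6.82 in the other 9 libraries, where its difference was 1.34 with an unadjusted p of 0.130. Without the 3 libraries the antigen presentation, immediate early and cell cycle lists had 0 higher members, and mitochondrial biogenesis had 1 lower.

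*Gm29506* was also looked up in the other organs of the same mice, whose tables were normalized separately, so levels are given organ by organ and not tested. In heart it ran from 1.33 to 13.2 normalized counts at 20 M and from 1.43 to 9.87 at 26 M. In testis it ran from 58.1 to 94.9 and from 46.5 to 86.4. In lung it ran from 3.26 to 661 (median 52.5) at 20 M and from 5.50 to 63.6 (median 16.6) at 26 M. In kidney it ran from 0.933 to 12.4 and from 0.769 to 2.63, and in liver from 0 to 17.2 and from 0.883 to 34.7.

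*Gdf15* and *Chrng*, used as markers of stressed and denervated muscle, were too low to test. *Gdf15* had 0 to 5.90 normalized counts at 26 M and 0 to 6.21 at 20 M, and *Chrng* had 0.911 to 30.7 and 0 to 9.68.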
